A study of Sus scrofa with 35 samples.

Results

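The breakdown of the branched-chain amino acids leucine, isoleucine and valine was followed through 10 enzyme genes in longissimus dorsi muscle, taken from the back of castrated male pigs. The genes were BCAT1, BCAT2, BCKDHA, BCKDHB, DBT, BCKDK, IVD, MCCC1, HIBADH and ACADSB. Every non-control probe whose gene name in the scanner files was one of these symbols was taken. This gave 21 of the 60305 non-control probes of the array, for 9 of the 10 genes, because no probe carried the name BCKDK. All 21 were among the 41517 probes kept after a filter on dim probes (a probe passed if some group had it well above background in 75% or more of its arrays). Each was well above background on 35 of 35 arrays, except the BCAT1 probe, which was so on 34 of 35.

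The pigs were Creole, Large White or their F1 cross, and each array carried the RNA of 1 muscle sample. The 6 groups were Creole TN, Creole HS, F1 TN, Large White TN and Large White HS with 6 arrays each and F1 HS with 5, where TN is thermoneutrality and HS is heat stress. TN is given as 24 °C and HS as 30 °C in the sample labels, but the growth protocol gives 5 days at 32 °C for HS. The study methods also give 32 °C, with slaughter after 4 or 5 days of it. Why the labels give 30 °C is not stated. Per the study methods, pigs entered the climatic room at 11 weeks of age as littermates from 3 blocks per breed, TN pigs were slaughtered before the temperature rose and HS pigs after it, and the 2 conditions were kept in different pens. Temperature, slaughter day, age and pen therefore cannot be told apart, and littermates were treated as independent animals, so the p-values rest on the spread between these arrays.

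Skeletal muscle is the main site where branched-chain amino acids lose their amino group, because the liver holds little of the first enzyme. BCAT2, the mitochondrial aminotransferase, and BCAT1, its cytosolic counterpart, pass the amino group to 2-oxoglutarate and form glutamate and a keto acid. The branched-chain keto acid dehydrogenase complex then removes a carboxyl group in a step that cannot be reversed. Its E1 component is built from the alpha subunit BCKDHA and the beta subunit BCKDHB, its E2 core from DBT, and its E3 component is DLD. BCKDK, a kinase, switches the complex off and the phosphatase PPM1K switches it on. Further on, IVD and MCCC1 act on the leucine branch, ACADSB on the isoleucine branch and HIBADH on the valine branch.

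The probes that carry the results are 60 bases long, and they are shown so that probes of 1 gene can be told apart as separate measurements or as copies. Capitals mark bases that a probe has in common with another probe of the same gene. The sequences come from the scanner files, 5′ to 3′, and the probes were not placed on a genome. BCKDHA was read by 2 copies of 1 sequence (A_72_P571909 and A_72_P087911) and by A_72_P441234, a sequence that shares no run longer than 5 bases with them:
BCKDHA A_72_P571909 and A_72_P087911: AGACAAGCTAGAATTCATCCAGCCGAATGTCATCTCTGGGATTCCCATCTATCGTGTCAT
BCKDHA A_72_P441234: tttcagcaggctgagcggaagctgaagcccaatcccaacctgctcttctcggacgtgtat

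The 3 BCAT2 probes share no run longer than 6 bases with each other, and their first 30 bases are:
BCAT2 A_72_P342538: atctttgaccccaactctgcatctccattc
BCAT2 O9326: accttcgcctccataccaatgactcacctg
BCAT2 A_72_P236737: gaaaatttctccctgttccttggcttctgt

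BCKDHB had 5 probes, of which 2 overlap by 55 bases, so they are close to the same measurement:
BCKDHB A_72_P693282: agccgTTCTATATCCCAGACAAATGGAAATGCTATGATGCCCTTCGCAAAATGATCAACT
BCKDHB A_72_P635404: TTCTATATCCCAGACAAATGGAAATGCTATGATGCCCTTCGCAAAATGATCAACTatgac

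The 2 HIBADH probes (A_72_P051436 and O10591) are copies of 1 sequence, and BCAT1 rests on a single probe (O10620). Their first 30 bases are:
HIBADH A_72_P051436 and O10591: CTTCAAAAGAATGACATCTTTAGAACTATC
BCAT1 O10620: actgagctgagtaaatttcataggtaacat

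The copies show how far a value can move for reasons within the array alone. Over 35 arrays the BCKDHA copies differed by 0.02 on the log2 scale on average with an SD of 0.10, against an SD of 0.22 between arrays of a group. For the HIBADH copies the SD of the difference was 0.06, against 0.25 and 0.26 between arrays of a group. Distinct sequences of 1 gene were less alike in some cases. After removal of the group means, the BCAT2 probes correlated over arrays with r between 0.748 and 0.971, the BCKDHB probes with r between 0.748 and 0.961 and the IVD probes with r between 0.786 and 0.944. The BCKDHA probe A_72_P441234 correlated with the copies with r of 0.496 and 0.346 only. Below, a gene is given by its brightest kept probe unless another is named.

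The first question was which enzymes differed between HS and TN muscle when breed was allowed for, and it was put to all 35 arrays with breed and temperature as additive terms (limma, Benjamini-Hochberg adjustment over the 41517 probes, threshold 0.05). BCAT2 and BCKDHA were lower in HS muscle, and all 6 of their probes passed the test. The other 15 probes did not pass, so 6 of 21 probes (28.6%) were called, 6 lower and 0 higher. Among all probes 16% were called, 8.3% lower and 7.73% higher. By the brightest probe, 2 of the 9 genes tested were called. The 6 called probes are repeated measurements of these 2 genes, and some are copies of the same sequence. The share of 28.6% therefore does not show that these enzymes were called more often than other genes. At an unadjusted p under 0.05 there were 8 of 21 probes, against 30.7% of all probes. The difference was negative for 17 of the 21 probes, with a median of -0.09 on the log2 scale against -0.02 over all probes.

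**Figure D1:**
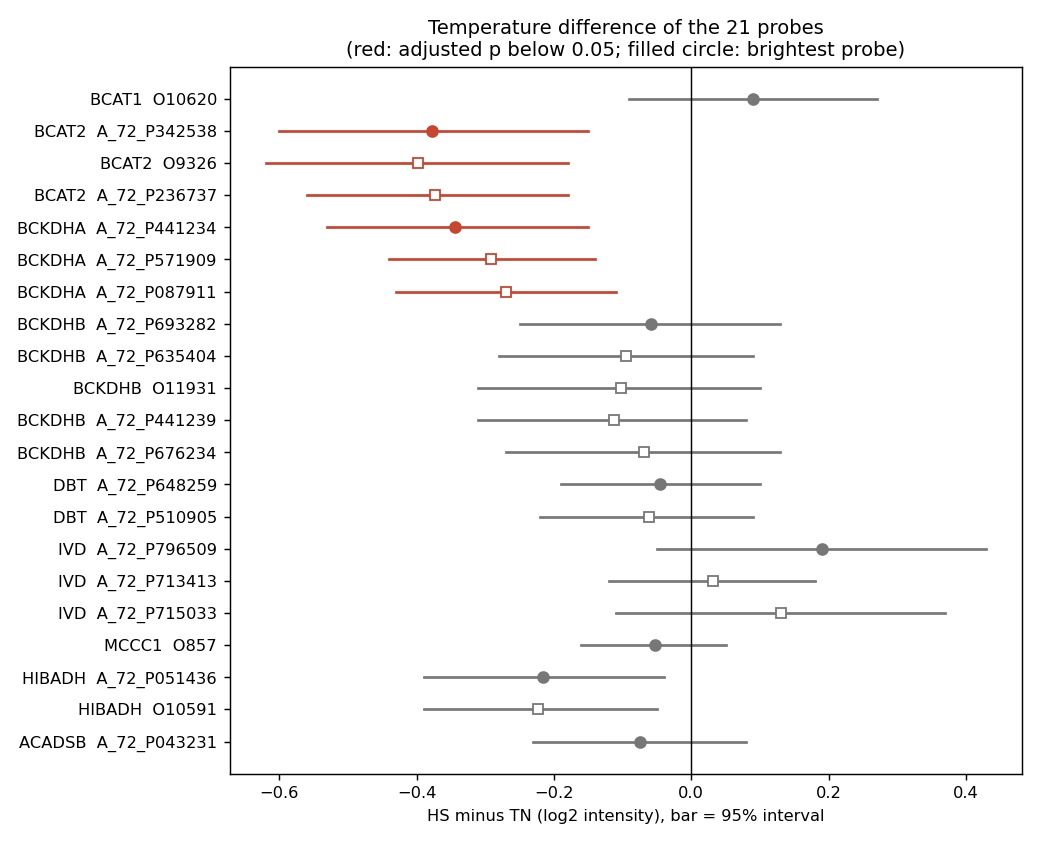
HS minus TN in log2 intensity (horizontal axis) for each of the 21 probes, named by gene and probe (vertical axis), with 95% intervals from limma. Filled circles are the brightest probe of a gene and open squares its other probes, and red marks an adjusted p below 0.05. The 3 BCAT2 and the 3 BCKDHA probes lie between -0.40 and -0.27, while the intervals of the BCKDHB, DBT, IVD, MCCC1, ACADSB and BCAT1 probes include 0.

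BCAT2 was at 13.33 ± 0.30 on the log2 intensity scale in TN (SD, n = 18; lowest 12.76, median 13.35, highest 14.04) and at 12.96 ± 0.37 in HS (SD, n = 17; lowest 12.10, median 12.96, highest 13.58). The ranges overlapped, and 14 of 17 HS arrays lay below the TN mean of their breed. The difference was -0.38 (SE 0.11, limma adjusted p = 0.0173, 95% interval -0.60 to -0.15). The other BCAT2 probes gave -0.40 (O9326, limma adjusted p = 0.0116) and -0.37 (A_72_P236737, limma adjusted p = 0.00732), so 3 separate sequences moved by similar amounts.

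BCKDHA was at 10.36 ± 0.28 in TN (SD, n = 18; lowest 9.87, median 10.39, highest 11.01) and at 10.01 ± 0.27 in HS (SD, n = 17; lowest 9.49, median 9.99, highest 10.52). Here too the ranges overlapped, with 15 of 17 HS arrays below the TN mean of their breed. The difference was -0.34 (SE 0.09, limma adjusted p = 0.0112, 95% interval -0.53 to -0.15). The copies of the other BCKDHA sequence gave -0.29 (limma adjusted p = 0.0071) and -0.27 (limma adjusted p = 0.0152).

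The remaining subunits of the complex did not pass the test. BCKDHB was at 10.94 ± 0.33 in TN (SD, n = 18; lowest 10.30, median 10.94, highest 11.51) and at 10.89 ± 0.27 in HS (SD, n = 17; lowest 10.28, median 10.92, highest 11.22). Its difference was -0.06 (SE 0.09, limma adjusted p = 0.718, 95% interval -0.25 to 0.13), and its 5 probes ranged from -0.11 to -0.06 with none called. DBT was at 8.78 ± 0.21 in TN (SD, n = 18) and 8.73 ± 0.20 in HS (SD, n = 17), a difference of -0.05 (SE 0.07, limma adjusted p = 0.712, 95% interval -0.19 to 0.10).

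The values of BCKDHA and its partners can also be set against each other within each array, as the difference between the log2 values of 2 genes, which no scaling by a single factor per array can change. Quantile normalisation, used here, is not such a scaling, so the differences can still depend on it. The 3 pairs given here were chosen after the values were seen, each setting a called gene against one that was not, so they are a description and carry no test. BCKDHA minus BCKDHB was -0.58 ± 0.37 in TN (SD, n = 18) and -0.87 ± 0.28 in HS (SD, n = 17), a difference of -0.29 (SE 0.10), with -0.35, -0.08, -0.43 and -0.29 on the 4 full slides. In 14 of 17 HS arrays it was below the TN mean of the breed. BCKDHA minus DBT differed by -0.30 (SE 0.10), also below the TN mean of the breed in 14 of 17 HS arrays, with -0.48, 0.11, -0.28 and -0.46 on the 4 full slides. With the mean of the copies in place of A_72_P441234, tried after seeing the data, the differences were -0.22 (SE 0.08) against BCKDHB and -0.24 (SE 0.10) against DBT.

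BCAT1, the cytosolic aminotransferase, was dim, at 6.10 ± 0.21 in TN (SD, n = 18; lowest 5.72, median 6.11, highest 6.55) and 6.19 ± 0.30 in HS (SD, n = 17; lowest 5.79, median 6.16, highest 7.06). The highest HS value was 1 F1 array, and the ranges overlapped otherwise. The difference of 0.09 (SE 0.09, limma adjusted p = 0.519) had a 95% interval of -0.09 to 0.27. Intensities were not background-subtracted, which compresses differences of a probe this dim. BCAT2 minus BCAT1, the third of the pairs above, differed by -0.47 (SE 0.15) between HS and TN and was below the TN mean of the breed in 13 of 17 HS arrays, with -0.72, -0.03, -0.78 and -0.54 on the 4 full slides.

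Among the enzymes of the separate branches none passed the test. HIBADH, which oxidises 3-hydroxyisobutyrate from valine, came closest, at 12.23 ± 0.22 in TN (SD, n = 18; lowest 11.72, median 12.28, highest 12.54) and 12.01 ± 0.28 in HS (SD, n = 17; lowest 11.34, median 12.15, highest 12.32). The HS arrays spread further down, and the difference was -0.22 (SE 0.09, limma adjusted p = 0.0784, 95% interval -0.39 to -0.04). Its copy gave -0.22 (limma adjusted p = 0.0626).

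IVD, which dehydrogenates isovaleryl-CoA in the leucine branch, lay on the other side of 0, at 9.44 ± 0.38 in TN (SD, n = 18; lowest 8.83, median 9.47, highest 10.27) and 9.63 ± 0.35 in HS (SD, n = 17; lowest 8.92, median 9.67, highest 10.41). Its 3 probes differed by 0.19 (SE 0.12, limma adjusted p = 0.286), 0.03 and 0.13. MCCC1, the alpha subunit of the carboxylase that follows IVD, was at 7.13 ± 0.18 in TN (SD, n = 18) and 7.08 ± 0.12 in HS (SD, n = 17), and gave -0.05 (SE 0.05, limma adjusted p = 0.534). ACADSB, which dehydrogenates 2-methylbutyryl-CoA from isoleucine, was at 13.08 ± 0.25 in TN (SD, n = 18) and 13.01 ± 0.19 in HS (SD, n = 17), and gave -0.07 (SE 0.08, limma adjusted p = 0.555).

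**Figure D2:**
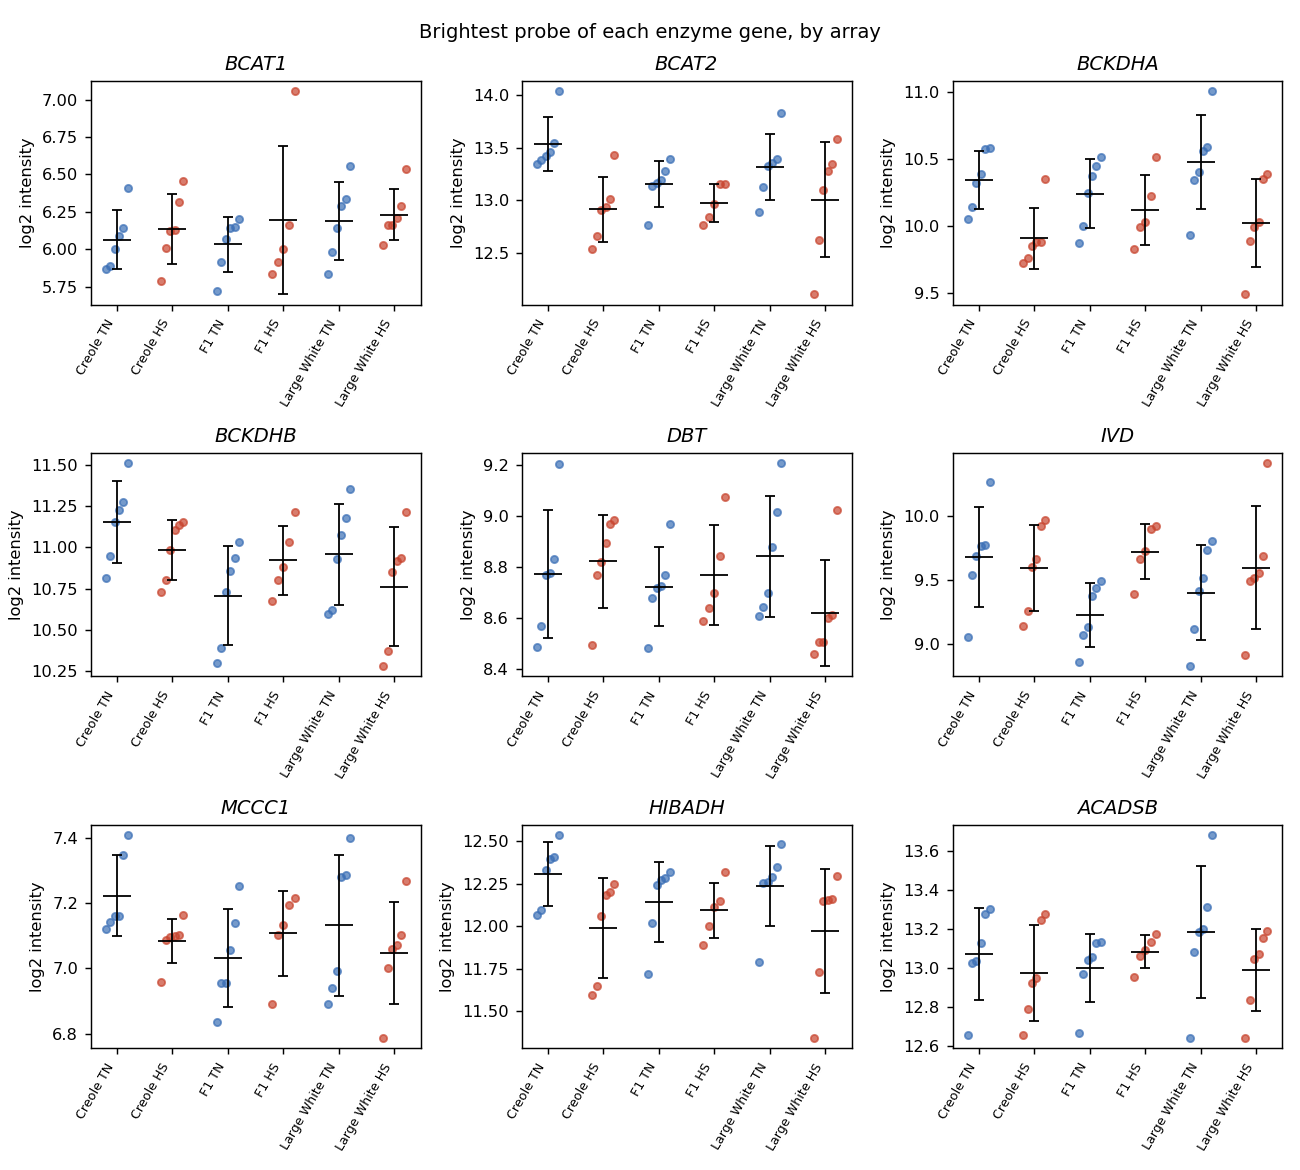
Log2 intensity of the brightest probe of the 9 genes (vertical axis, own scale per panel) in the 6 groups (horizontal axis), with 1 point per array, TN in blue and HS in red, sorted within a group. Bars are the mean ± SD. BCAT2 and BCKDHA have lower HS means in each breed, and all 9 genes have overlapping TN and HS values.

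The lower values of BCAT2 and BCKDHA moved together with other features of the arrays. Array brightness, taken as the 75th percentile of the unnormalised median intensity on the log2 scale, was 9.05 ± 0.17 (SD, n = 18, from 8.73 to 9.40) on TN arrays and 9.24 ± 0.24 (SD, n = 17, from 8.88 to 9.62) on HS arrays. The mean of 13 leukocyte markers was 9.72 ± 0.79 (SD, n = 18, from 8.13 to 11.14) in TN and 10.43 ± 0.56 (SD, n = 17, from 9.52 to 11.49) in HS, and 5 of the 13 were called higher, with LYZ at 2.26, CSF1R at 0.93 and PTPRC, common to all leukocytes, at -0.02 and not called by its brightest probe, while its other 2 kept probes were both called higher. Of 9 connective tissue markers 4 were called higher (list mean 12.90 ± 0.37 in TN, SD, n = 18, and 13.25 ± 0.24 in HS, SD, n = 17), and of 3 blood cell markers 2 were called lower. By the brightest probe, 1 of 12 skeletal muscle markers was called higher (DES, 0.24) and 2 lower (TTN, -0.37, and MYH2, -0.21). No other kept probe of DES, TTN or MYH2 was called. MYH4, MYH1 and TNNT3 were not called by the brightest probe. Of their other kept probes 6 of 9, 3 of 7 and 3 of 4 were called lower. The mean of the muscle markers was 17.81 ± 0.08 in TN (SD, n = 18) and 17.71 ± 0.11 in HS (SD, n = 17), and MB, which stores oxygen in muscle, was at -0.35 (limma adjusted p = 0.0572). ACTA1 and CKM, which define skeletal muscle, were present at 19.38 and 19.27 in TN, near the top of the scale, where a change can hardly show. In bulk muscle, fewer cells of a type and less RNA per cell cannot be told apart.

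Within groups, arrays that were brighter had lower values of both enzymes. After removal of the group means, BCAT2 correlated with brightness with Pearson's r = -0.688 (n = 35 arrays, permutation p = 1e-05, the smallest that 100000 permutations can give, adjusted over 18 relations 3.6e-05) and Spearman's rho = -0.663 (permutation p = 3e-05, adjusted 0.000108). BCKDHA gave r = -0.82 (permutation p = 1e-05, adjusted 3.6e-05) and rho = -0.805 (permutation p = 1e-05, adjusted 4.5e-05). Without the 2 arrays farthest from the median brightness r was -0.664 and -0.787, and on each of the 4 full slides r was negative for both, from -0.861 to -0.486 for BCAT2 and from -0.87 to -0.392 for BCKDHA. With the leukocyte mean, r was -0.727 for BCAT2 (permutation p = 1e-05, adjusted 3.6e-05, rho = -0.733, without the 2 farthest arrays -0.714, slides -0.963 to -0.361) and -0.562 for BCKDHA (permutation p = 0.00047, adjusted 0.000846, rho = -0.51, without the 2 farthest arrays -0.467, slides -0.867 to -0.433). The relations of BCKDHA depended on the probe. The mean of its copies gave r = -0.391 with brightness (permutation p = 0.0208, adjusted over 5 relations 0.026, rho = -0.51, without the 2 farthest arrays -0.357), with r from -0.773 to 0.511 on the 4 full slides, so the sign differed between slides. With the leukocyte mean the copies gave r = -0.465 (permutation p = 0.0051, adjusted 0.0127, rho = -0.507, without the 2 farthest arrays -0.467, slides -0.763 to -0.185). Of the 9 genes HIBADH had the largest r in size with the leukocyte mean, at r = -0.836 (permutation p = 1e-05, adjusted 3.6e-05, rho = -0.788, without the 2 farthest arrays -0.813, slides -0.95 to -0.173).

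**Figure D3:**
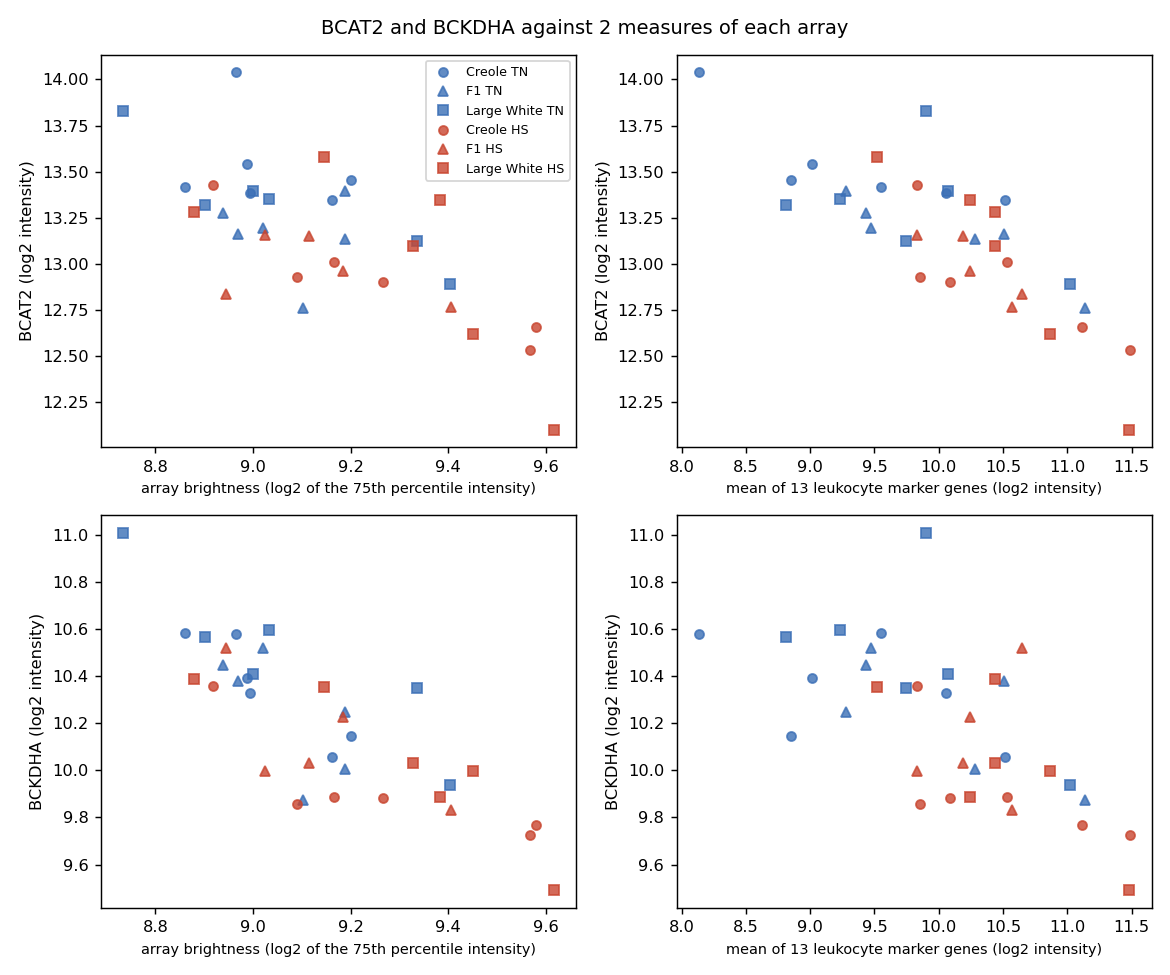
BCAT2 (upper panels) and BCKDHA (lower panels) in log2 intensity (vertical axes) against array brightness (left, log2 of the 75th percentile of intensity) and the mean of 13 leukocyte markers (right, log2 intensity), 1 point per array, TN in blue and HS in red, with circles for Creole, triangles for F1 and squares for Large White. Values fall from left to right in each panel, and the 3 brightest arrays, at 9.57 to 9.62, are HS arrays.

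With brightness as a covariate the HS minus TN difference was -0.18 for BCAT2 (SE 0.09, limma adjusted p = 0.274) and -0.14 for BCKDHA (SE 0.06, limma adjusted p = 0.19), and 0 of 21 probes were called. With the leukocyte mean as a covariate it was -0.12 for BCAT2 (SE 0.09, limma adjusted p = 0.411) and -0.18 for BCKDHA (SE 0.09, limma adjusted p = 0.226), and 1 probe was called, the brightest of IVD, at 0.40 (SE 0.11, limma adjusted p = 0.0303). Of the within-array differences, BCAT2 minus BCAT1 went from -0.47 to -0.22 (SE 0.14) with brightness and -0.17 (SE 0.14) with the leukocyte mean. BCKDHA minus DBT went from -0.30 to -0.14 (SE 0.09) and -0.21 (SE 0.11), and BCKDHA minus BCKDHB from -0.29 to -0.18 (SE 0.10) and -0.34 (SE 0.12). Without the 3 brightest arrays (Large White HS replicate 5 and Creole HS replicates 6 and 1), which was tried after seeing the data, BCAT2 gave -0.25 (SE 0.09, limma adjusted p = 0.0909) and BCKDHA -0.27 (SE 0.09, limma adjusted p = 0.059), and 2 of 21 probes were called. Scaling to the spike-in probes, which read RNA added to each sample, kept both genes on the lower side, at -0.28 for BCAT2 (SE 0.09, limma adjusted p = 0.0277) and -0.18 for BCKDHA (SE 0.06, limma adjusted p = 0.0327). This scaling moved the median of all probes from -0.02 to 0.07, and 3 of 21 probes were called. The counts of called probes were not set against the share of all probes called in the same fits. They therefore do not show a loss of calls particular to these enzymes. The part of brightness and of other cells in the temperature difference was not tested beyond these fits.

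The arrays lay on 5 slides, told apart by the barcode in the scanner files. There were 4 TN and 4 HS arrays on 4 of them and 2 TN and 1 HS on the fifth. BCAT2 was lower in HS on slides 1, 3 and 4 (-0.78, -0.61 and -0.17) and not on slide 2 (0.04), and BCKDHA likewise (-0.51, -0.68 and -0.27, with 0.11 on slide 2). Slide 5 gave -0.46 and -0.50.

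**Figure D4:**
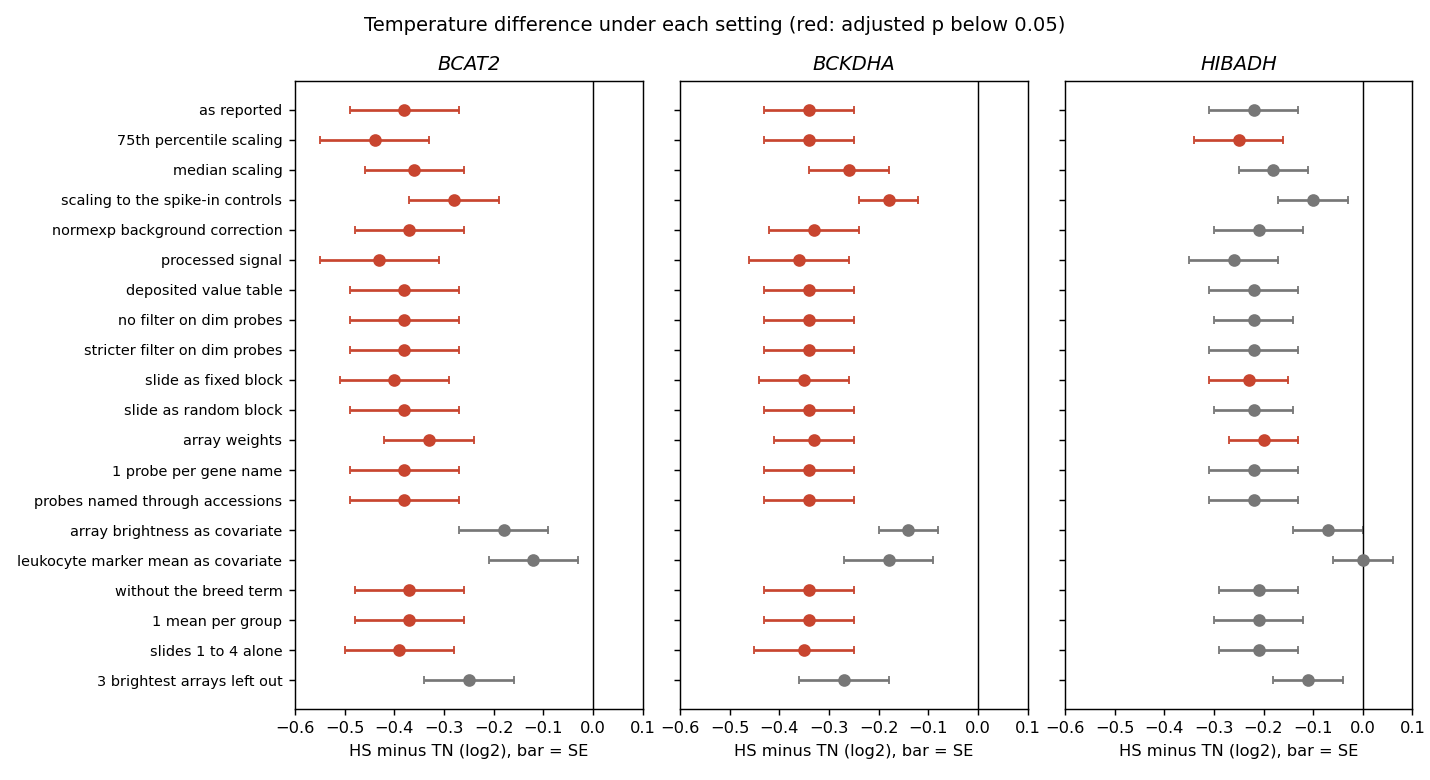
HS minus TN in log2 intensity (horizontal axes, bars are the SE) for BCAT2, BCKDHA and HIBADH under each way of processing or fitting the data (vertical axis), with red for an adjusted p below 0.05. BCAT2 and BCKDHA lose the call with brightness or the leukocyte mean as a covariate and without the 3 brightest arrays, and HIBADH moves to 0.00 with the leukocyte mean.

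Within the breeds the same comparison was made in a model with 1 mean per group. In Creole pigs 1 of 21 probes was called against 1.91% of all probes (0.874% lower and 1.03% higher), and 8 had an unadjusted p under 0.05, against 21.5%. This was the BCAT2 probe A_72_P236737, with 9.27 ± 0.29 in TN (SD, n = 6; lowest 9.06, median 9.17, highest 9.84) and 8.62 ± 0.25 in HS (SD, n = 6; lowest 8.22, median 8.64, highest 8.97). For this probe HS minus TN was -0.64 (SE 0.15, limma adjusted p = 0.0322). The brightest BCAT2 probe ran from 13.35 over a median of 13.44 to 14.04 in Creole TN and from 12.53 over 12.92 to 13.43 in Creole HS, a difference of -0.62 (SE 0.18, limma adjusted p = 0.0653). The count rested on single arrays: it was 0 without Creole TN replicate 1 or 6 or Creole HS replicate 1, 3, 5 or 6, 2 without Large White HS replicate 2 or Large White TN replicate 6, 4 without Large White TN replicate 1 and 5 without Creole HS replicate 2 or Large White HS replicate 5.

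In F1 and Large White pigs no probe of these genes was called by limma, against 0.00482% of all probes in each, with 1 and 4 of 21 at an unadjusted p under 0.05, against 8.3% and 16.6% of all probes. BCAT2 ran from 12.76 over 13.18 to 13.40 in F1 TN, and the 5 F1 HS arrays had 12.96, 13.15, 12.84, 12.76 and 13.16, a difference of -0.18 (limma adjusted p = 0.894). In Large White it ran from 12.89 over 13.33 to 13.83 in TN and from 12.10 over 13.19 to 13.58 in HS, a difference of -0.31 (limma adjusted p = 0.39). BCKDHA differed by -0.43 in Creole (limma adjusted p = 0.111), -0.12 in F1 (limma adjusted p = 0.924) and -0.45 in Large White (limma adjusted p = 0.153). In all 3 breeds the HS mean of both genes was lower, and in none was the brightest probe called. The 1 F1 probe under an unadjusted p of 0.05 was the brightest of IVD, higher by 0.49 in HS (limma adjusted p = 0.496). The interaction of breed and temperature called 0 of 21 probes (0 at an unadjusted p under 0.05, smallest limma adjusted p = 0.963) and 0% of all probes, of which 3.84% had an unadjusted p under 0.05, so no difference between breeds in the response was shown.

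Creole and Large White muscle were compared at the same temperature in the additive model. None of the 21 probes was called, against 3.64% of all probes, and 3 had an unadjusted p under 0.05, all of BCKDHB, against 15.4%. BCKDHB was at 11.07 ± 0.22 in Creole (SD, n = 12; lowest 10.73, median 11.12, highest 11.51) and at 10.86 ± 0.33 in Large White (SD, n = 12; lowest 10.28, median 10.92, highest 11.36), and the ranges overlapped. Its difference was 0.21 (SE 0.11, limma adjusted p = 0.391, 95% interval -0.02 to 0.44), and its 5 probes ranged from 0.21 to 0.28. The brightest probes of the other 8 genes differed by -0.12 (BCKDHA) to 0.14 (IVD). Against the midpoint of the parents, the F1 showed 0 called probes (0 at an unadjusted p under 0.05, smallest limma adjusted p = 0.695), where 0.246% of all probes were called and 7.35% had an unadjusted p under 0.05. The largest F1 difference among the brightest probes was again BCKDHB, at -0.16 (SE 0.10, limma adjusted p = 0.812).

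How the enzymes varied from animal to animal was asked with the residuals from the 6 group means over 35 arrays. Of the 36 pairs of genes 28 correlated positively (median r 0.38, from -0.42 to 0.824), and 20 pairs had an adjusted permutation p under 0.05 for Pearson's r and 18 for Spearman's rho. The same count was not made over pairs of all genes on the array. It therefore does not show that these enzymes vary together more than other genes do. BCAT2 and HIBADH were the pair most alike, with r = 0.824 (permutation p = 1e-05, adjusted 5.14e-05), rho = 0.779 (adjusted 0.00012), r = 0.754 without the 2 farthest arrays and 0.696 after removal of brightness. On the 4 full slides this pair gave 0.92, 0.935, 0.954 and 0.532. BCAT2 and BCKDHA gave r = 0.714 (permutation p = 1e-05, adjusted 5.14e-05), rho = 0.632 (adjusted 0.00048) and 0.638 without the 2 farthest arrays, with 0.773, 0.682, 0.882 and 0.33 on the 4 full slides, and 0.361 after removal of brightness.

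Among the subunits of the complex, the values depended on the BCKDHA probe. By A_72_P441234, BCKDHA and BCKDHB gave r = 0.37 (permutation p = 0.0293, adjusted 0.0502) and rho = 0.378 (adjusted 0.0514), with 0.223, 0.627, 0.619 and 0.272 on the 4 full slides and 0.463 without the 2 farthest arrays. BCKDHA and DBT gave r = 0.28 (permutation p = 0.105, adjusted 0.151) and rho = 0.34 (adjusted 0.0801), with 0.555, 0.253, 0.439 and 0.53 on the 4 full slides and 0.192 without the 2 farthest arrays. BCKDHB and DBT gave r = 0.17 (permutation p = 0.326, adjusted 0.379) and rho = 0.204 (adjusted 0.278), with -0.0696, -0.29, 0.606 and 0.324 on the 4 full slides and 0.188 without the 2 farthest arrays. With the mean of the copies, BCKDHA and BCKDHB gave r = 0.567 (permutation p = 0.00046, adjusted over 5 relations 0.0023), rho = 0.572 (adjusted 0.0019) and 0.496 without the 2 farthest arrays, with 0.676, 0.263, 0.81 and 0.00605 on the 4 full slides. The copies and DBT gave r = 0.124 (permutation p = 0.482, adjusted 0.482), and the copies and BCAT2 r = 0.396 (permutation p = 0.0192, adjusted 0.026). A single array set the probes apart. In Large White TN replicate 1, A_72_P441234 was at 11.01, the highest of its group, while the copies were at 7.63 and 7.54, the lowest of theirs. Without this array, tried after seeing the data, A_72_P441234 and the mean of the copies correlated with r = 0.725 (n = 34 arrays), and with BCKDHB they gave 0.509 and 0.526. The group means removed beforehand still included this array. The median r of the 36 pairs was 0.167 after removal of brightness.

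Among 9889 named genes, those whose residuals followed each enzyme most closely over the 35 arrays were listed as a description, since all genes of an array share its RNA and brightness. For BCKDHA they were DLAT (r = 0.916), CYHR1 (0.901) and NDUFA11 (0.895), where DLAT is the E2 core of the pyruvate dehydrogenase complex, and NDUFA11 a subunit of respiratory complex I. For BCAT2 they were FN3K (0.893), CUL3 (0.891) and DEPTOR (0.871), the last an inhibitor bound to mTOR kinase. BCKDHB was closest to IQSEC2 (0.882), MCEE (0.876) and COPS5 (0.861), where MCEE turns over methylmalonyl-CoA from valine and isoleucine. HIBADH was closest to FAM174A (0.936), PPP3CB (0.901) and ZADH2 (0.897), and ACADSB to FBXO9 (0.899), DYRK1B (0.877) and NDUFS4 (0.859). MCCC1 was closest to KLF15 (0.801), a transcription factor known to drive branched-chain amino acid breakdown in muscle and then to SLTM (0.758). IVD had ZNF395 (0.734), ARMCX6 (0.706) and CAMK2D (0.694), DBT had AMOTL1 (0.677), KCNC4 (0.622) and HIPK2 (0.613), and BCAT1 had MCT7 (0.675), NAA38 (0.659) and KIAA1468 (0.645).

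The rest of the pathway was followed with a list of 39 further symbols, of which 35 had a kept probe. In the temperature comparison 10 of the 35 genes were lower and 1 was higher in HS by the brightest probe, against 8.3% of all probes lower and 7.73% higher, with a median of -0.14 against -0.02 over all probes. The list counts only the brightest probe of each gene, while the shares cover all kept probes, so these are not like for like. The partners of the aminotransferases that take up or pass on the amino group held 3 of the 10. GOT1 was at 13.42 ± 0.44 in TN (SD, n = 18) and 12.88 ± 0.33 in HS (SD, n = 17), a difference of -0.55 (SE 0.13, limma adjusted p = 0.00421), and GOT2, its mitochondrial form, fell from 15.36 ± 0.24 to 15.06 ± 0.17, with -0.31 (SE 0.06, limma adjusted p = 0.00171). GPT, the alanine aminotransferase, gave -0.43 (SE 0.11, limma adjusted p = 0.00577). SLC3A2, the heavy chain of the transporters that carry large neutral amino acids, had the largest change of the list, from 10.59 ± 0.51 (SD, n = 18) to 9.87 ± 0.30 (SD, n = 17), or -0.72 (SE 0.14, limma adjusted p = 0.000941).

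Around the complex, DLD, the E3 component, was lower by 0.39 on the log2 scale (13.30 ± 0.19 in TN and 12.91 ± 0.35 in HS, difference -0.39, SE 0.09, limma adjusted p = 0.00407), and 8 of its other 9 kept probes were called lower as well. DLD also serves the pyruvate and 2-oxoglutarate dehydrogenase complexes. PPM1K, the phosphatase of the complex, was the gene called higher, at 7.33 ± 0.48 in TN (SD, n = 18) and 7.74 ± 0.39 in HS (SD, n = 17), a difference of 0.41 (SE 0.14, limma adjusted p = 0.0426). Further down, HADHB (-0.25, limma adjusted p = 0.00182), HADHA (-0.21, limma adjusted p = 0.0339, none of its other 4 kept probes called) and ACADM (-0.20, limma adjusted p = 0.0435, 3 of its other 7 kept probes called), enzymes of fatty acid oxidation, were lower, as were MMAA of the cobalamin route (-0.17, limma adjusted p = 0.0283) and ESRRA, a nuclear receptor of mitochondrial genes (-0.25, limma adjusted p = 0.0256). None of the 4 leucine and 3 valine genes measured beyond the members was called. OXCT1, which activates acetoacetate, was the only gene called of the 35 between Creole and Large White, at -0.49 (SE 0.14, limma adjusted p = 0.042), where 3.64% of all probes were called. No gene was called for the F1 against the midpoint, where 0.246% of all probes were called.

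**Figure D5:**
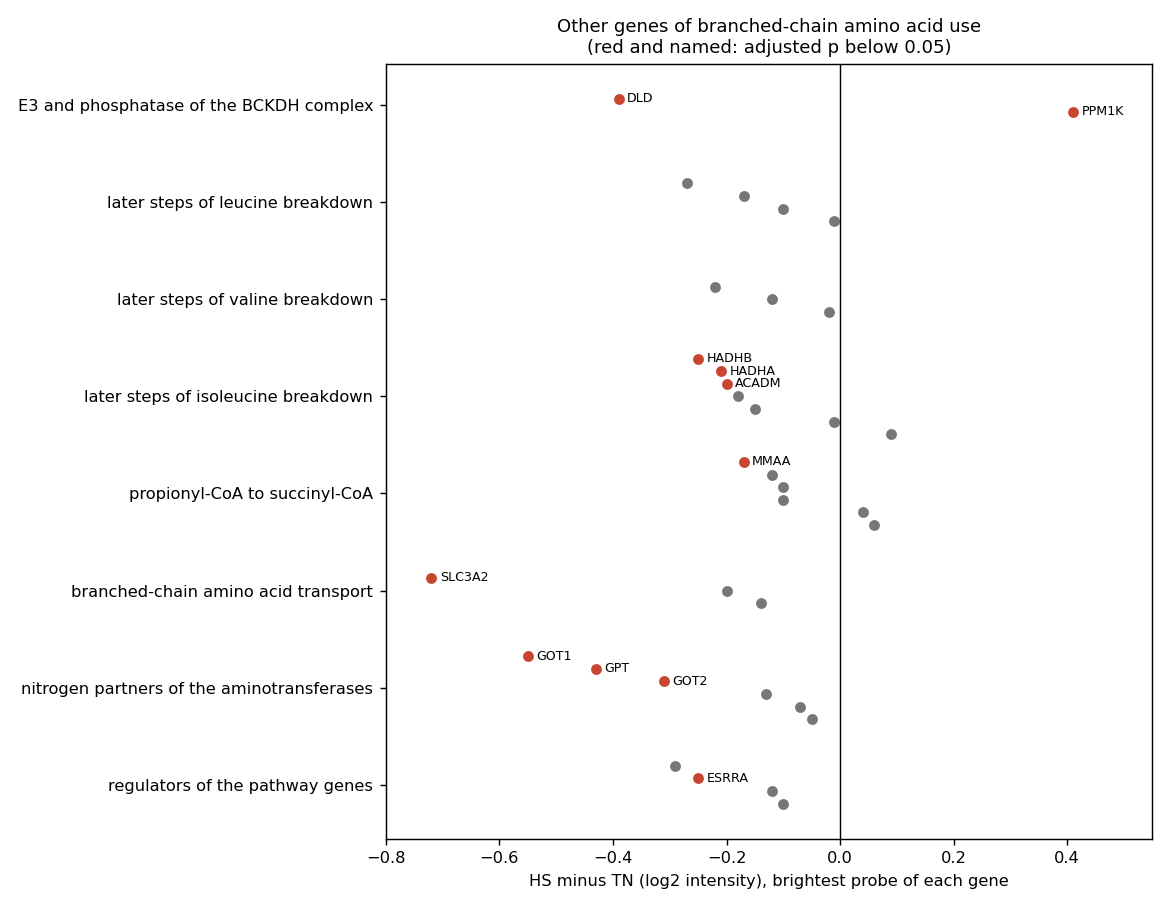
HS minus TN in log2 intensity (horizontal axis) for the brightest probe of the 35 measured genes of the list, grouped by role (vertical axis), 1 point per gene. Red and named genes have an adjusted p below 0.05, namely 10 on the lower side and PPM1K on the higher side.

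With brightness as a covariate 3 genes of the list stayed lower (HADHB, SLC3A2 and GOT2), with the leukocyte mean 2 (SLC3A2 and GOT2), and PPM1K stayed higher in both. With spike-in scaling 5 were lower (DLD, SLC3A2, GOT1, GOT2 and GPT), and without slide 5, tried after seeing the data, 8 were lower and PPM1K was not called. These counts, too, were not set against the share of all probes called in the same fits. When each of the 35 arrays was left out in turn, the calls of DLD, HADHB, MMAA, SLC3A2, GOT1, GOT2, GPT and ESRRA were kept in 35 of 35 fits. HADHA lost its call in 9 fits, and ACADM and PPM1K lost theirs in 18 fits each.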

How the data were processed

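RNA of longissimus dorsi muscle from 35 pigs was hybridised by the authors to porcine 1-colour Agilent arrays, 1 array per animal. The deposited scanner files hold spot intensity and spot flags (well above background, outlier) from Agilent Feature Extraction 10.10.1.1, per the file headers, with no normalisation between arrays. The deposited value table holds log2 values that the authors had quantile normalised and filtered, and its values of the 21 probes differed by at most 0.0246 from those used here.

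Median intensities of non-control spots, without background subtraction, were quantile normalised with limma 3.58.1 in R 4.3.3 and taken to log2. The 105 spots flagged as outliers were set to missing, spots of a probe were averaged, and a probe was kept when 75% or more of the arrays in any group had it well above background. No spot was saturated. Arrays correlated with Pearson r from 0.941 to 0.996 and held 58.4 to 75.9% of probes well above background, and the number of arrays limits the precision. Groups followed the sample labels. Breed and temperature were fitted in an additive limma model, and 1 mean per group gave the contrasts within breeds and the interaction. Tests were two-sided, with Benjamini-Hochberg adjustment over the 41517 kept probes. The mixed model of the study has random terms that the labels do not give, and they were not fitted.

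Probe names are those of the array design. The authors annotated the probes anew, and that annotation was not used. Naming 9604 probes by accession through the RefSeq gene table gave the same 21 probes. A probe without a match kept its array name, so for such a probe the agreement was fixed in advance. All 10 members were named, a gene was described by the kept probe that was brightest on average, at most 12 pathway genes past the threshold were named, and so were the 3 genes with the highest r to each member, of which 1 is not reported here. The members, the pathway list and the marker lists were chosen with earlier results of these data known. The scripts were tested on simulated data. Alternatives covered scaling, background correction, signal column, filter, slide, array weights, naming, covariates and leaving out each array. The fits without slide 5 and without the 3 brightest arrays, the recount of pathway genes under each setting, and the use of the other BCKDHA sequence, were added after seeing the data.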

Additional observations from a re-analysis of the deposited data

Results flagged for a closer look

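In 7 of 54 combinations of gene and group, 1 array stood apart from the others of its group by a gap larger than Dixon's 95% critical value allows, where about 1 in 20, or 2.7, would do so by chance. BCAT1 reached 7.06 on the log2 scale in F1 HS replicate 5, against 5.84 to 6.16 in the other F1 HS arrays (gap over range 0.735). BCAT2 reached 14.04 in Creole TN replicate 1, against 13.35 to 13.54 (0.719). BCKDHA reached 10.36 in Creole HS replicate 2, against 9.72 to 9.89 (0.744), and DBT reached 9.02 in Large White HS replicate 1, against 8.46 to 8.61 (0.731). On the lower side, MCCC1 was at 6.96 in Creole HS replicate 6, against 7.09 to 7.16 (0.633). HIBADH was at 11.79 in Large White TN replicate 6, against 12.26 to 12.48 (0.673), and ACADSB was at 12.67 in F1 TN replicate 2, against 12.97 to 13.13 (0.646). Without each of these arrays in turn, the temperature difference of BCAT2 stayed between -0.42 and -0.32 and that of BCKDHA between -0.38 and -0.31, the ranges over all 35 arrays left out.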

How the results depend on the processing

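The temperature differences of BCAT2 (-0.44 to -0.12, adjusted p 0.00777 to 0.411) and BCKDHA (-0.36 to -0.14, adjusted p 0.00264 to 0.226) were negative under each of 19 alternatives and called under 16. They lost the call with brightness (-0.18 and -0.14) or the leukocyte mean (-0.12 and -0.18) as a covariate and without the 3 brightest arrays (-0.25 and -0.27). The 6 called probes became 3 with spike-in scaling, 2 with 1 probe per gene name (9 members tested), 0 with brightness, 1 (IVD, higher) with the leukocyte mean, 2 without the 3 brightest arrays and 6 to 8 with an array left out. The share of all probes called under each setting was not set beside these counts. HIBADH ran from -0.24 to -0.17 with an array left out and was called with 75th percentile scaling (-0.25), slide as a fixed block (-0.23), array weights (-0.20), and without F1 TN replicate 2 or Large White TN replicate 6 (-0.24 each).

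Some differences that were not called changed sign. For temperature these were BCAT1 with 75th percentile scaling (-0.02), BCKDHB and DBT with median scaling (0.01 and 0.03), and BCKDHB, DBT, MCCC1 and ACADSB with spike-in scaling (0.09, 0.11, 0.05 and 0.03) and with brightness (0.04, 0.00, 0.01 and 0.07). With the leukocyte mean they were BCKDHB, DBT, MCCC1, HIBADH and ACADSB (0.16, 0.03, 0.05, 0.00 and 0.08), and without the 3 brightest arrays BCKDHB (0.02). The largest was BCKDHB with the leukocyte mean, at 0.16 (SE 0.07, limma adjusted p = 0.158), against -0.06 as reported. For Creole minus Large White, BCAT2 and HIBADH were at -0.03 and -0.03 with spike-in scaling and at -0.02 and -0.03 with the leukocyte mean, HIBADH at -0.00 with median scaling and DBT at -0.07 in TN arrays alone, and with an array left out BCAT2 ran from -0.02 to 0.12 and HIBADH from -0.02 to 0.09. For the F1, BCKDHA, HIBADH and ACADSB were at 0.02, 0.03 and 0.01 with the leukocyte mean, and with an array left out BCKDHA ran from -0.07 to 0.03, DBT from -0.06 to 0.01, HIBADH from -0.05 to 0.03 and ACADSB from -0.05 to 0.02.

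Within Creole the 1 called probe became 3 (all BCAT2) with 75th percentile scaling, 0 with spike-in scaling, 1 probe per gene name, either covariate, slides 1 to 4 alone or without the 3 brightest arrays, and 0 to 5 with an array left out. Within Large White 0 became 1 without TN replicate 6 (BCKDHA, -0.56, adjusted p = 0.0468), so that the count ran from 0 to 1. The other counts stayed at 0 under each setting run. Within-breed values were recomputed for BCAT2 and BCKDHA alone, those of the other genes were not run. Of the pathway list 10 genes were lower and 1 higher as reported, 15 and 0 with 75th percentile scaling, and 7 and 1 with median scaling. The counts under other settings, here and within breeds, were not set against the share of all probes called under the same setting. They therefore do not show a gain or loss of calls particular to these genes. The cause of the changes in these counts was not tested. No paired analysis was possible because TN and HS arrays are of different pigs and the labels do not give the litter. The labels carry no replicate numbers either, and those used here follow the order of the samples.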

Other observations

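Some probes carry no member name but a description of a member in the scanner files, and they were looked at after the data were seen. A probe described as the kinase BCKDK (A_72_P056091) was well above background on 35 arrays, with a mean of 15.21 in TN and 15.09 in HS on the log2 intensity scale, a difference of -0.11 (SE 0.05, limma adjusted p = 0.0959). A probe described as IVD (A_72_P709942) differed by -0.07 between HS and TN (limma adjusted p = 0.682). A probe described as HIBADH (A_72_P226822), above background on 33 arrays, was higher in Creole than in Large White by 0.40 (SE 0.09, limma adjusted p = 0.0097), whereas the brightest probe named HIBADH differed by 0.04 (limma adjusted p = 0.905). A probe described as ACADSB (A_72_P250702) was above background on 20 arrays.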
